A study of Homo sapiens with 24 samples.

Results

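The genes of DBTRG-05MG, an established human glioblastoma cell line, were compared between its “WWOX” and “Vec” variants. The genes were the autosomal ones with at least 5 CPM (the tags of a gene scaled to a common library total) in at least 1 of the 6 DBTRG-05MG libraries, which were 10306 of the 43037 genes listed (40570 of them autosomal). DFFB lay just inside this limit with a highest value of 5.00 CPM, and SLC52A1 just outside it with 4.99 CPM. Of the 10306 genes, 9740 (94.5%) were protein coding and 393 (3.8%) were lncRNA genes, and together they held between 95.7% and 96.7% of the tags of each library. The same rule gave 9695 genes in U87MG, 9760 in T98G, and 10212 in U251MG.

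The study compared 4 glioblastoma lines after stable lentiviral transduction, with 3 libraries of each variant and 24 in all. Both DBTRG-05MG variants were grown in RPMI medium with sodium pyruvate, L-glutamine, and serum, and both were selected with puromycin. The “WWOX” variant received WWOX by a lentiviral system that the sources name both as GIPZ and as a pLenti vector with the CMV promoter, GFP, and a puromycin resistance gene, and the “Vec” variant received a Puro-Blank lentivirus as the control. The sources used here do not state whether the control virus carries GFP, how many clones each selected line holds, or whether the 3 libraries, described as biological triplicates, came from separate transductions, so p-values measure only the spread between these libraries.

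WWOX is a tumor suppressor of the short-chain dehydrogenase family whose WW domains bind proline-rich motifs of partner proteins, among them transcription factors, and it is encoded across a fragile site of the genome. CAGE-Seq traps the cap of RNA and reads the 5′ end of each transcript, so one tag stands for one capped transcript whatever its length. The values below are CPM as deposited, and log2FC is the difference of “WWOX” from “Vec” on the log2(scaled CPM + 0.5) scale, which understates the change of genes with low values.

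The gene carried by the vector was examined first. WWOX, on chromosome 16 from 78099400 to 79212667 of hg38, measured 20.4, 22.2, and 21.3 CPM in the “Vec” libraries and 32.0, 28.2, and 27.96 CPM in the “WWOX” libraries. Each “WWOX” library was above each “Vec” library. The log2FC was 0.39 with a standard error of 0.213, which did not pass the threshold (adjusted p = 0.744 from limma), and permuting the labels exactly (two-sided permutation test) gave p = 0.1, the smallest that 3 against 3 libraries allow. The annotation lists 12 genes that overlap WWOX on its own strand and 11 on the other. Whether tags that begin in vector sequence were counted for WWOX is not given in the sources used here.

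Gene tags per library numbered from 14590728 to 16953689, and a count of 0 allows up to 3 tags, between 0.177 and 0.206 CPM, for counting error only. On the first component of the 6 libraries (42.3% of the variance) and on the second (28.9%), the variants overlapped. Neural stem and glioma markers were present, as 9 of 10 passed the limit of 5 CPM, CD44, VIM, SOX2, and NES among them. Their summed level ran from 2412 to 3982 CPM in “Vec” and from 2599 to 3520 CPM in “WWOX”. Most of that sum was CD44, which alone ran from 2028 to 3520 CPM in “Vec” and from 2110 to 3036 CPM in “WWOX”. GFAP, the intermediate filament of astrocytes, ran from 0.790 to 5.72 CPM, and MOG, a myelin protein, was listed at 0 in each library. All 9 immune markers and 4 of 8 endothelial markers stayed at 3 tags or fewer in every library. Of the other lists, epithelial markers (2 of 8 passed the limit) summed to between 930.3 and 1294 CPM in “Vec” and between 507.1 and 757.3 CPM in “WWOX”, nearly all of it KRT18, a keratin, and oligodendrocyte markers (2 of 8) to between 35.5 and 37.99 CPM and between 44.1 and 59.8 CPM. Astrocyte (4 of 8), neuron (4 of 8), and mesenchymal markers (2 of 10) overlapped between the variants in their sums. ALDH1L1, a folate enzyme of astrocytes, was the only marker that changed, and it fell with a log2FC of −1.01 (limma adjusted p = 0.0415). It reached 5 CPM in “Vec” only. Its call was kept in only 5 of 13 alternative analyses and with only 9 of the 24 libraries left out singly. The part of these markers in the results was not tested, and in bulk RNA fewer cells of a type and less RNA per cell cannot be told apart.

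With “WWOX”, 106 of the 10306 genes changed (1.03%), 55 higher (0.534%) and 51 lower (0.495%), at an adjusted p under 0.05 from limma. At an unadjusted p under 0.05 there were 786. On scaled log2 values, 2111 genes (20.5%) kept every “Vec” library apart from every “WWOX” library, and 104 of the 106 were among them. The median standard error of a log2FC was 0.317. In all, 636 genes reached 5 CPM in the libraries of one variant only, and 63 of the 106 were of that kind. These had to be low in the other variant, and the remaining 43 reached it in both. Among the 37 named genes that changed, only FOXB1, NMRAL1, COL11A1, SEMA3C, TPM1, CXCL6, SLC39A11, and ESM1 reached 5 CPM in both variants. For the others, a level under 5 CPM in one variant was given by the rule, so their separate libraries are descriptions only. The plot of change against level shows that most of the 106 genes lay below 100 CPM.

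**Figure D1:**
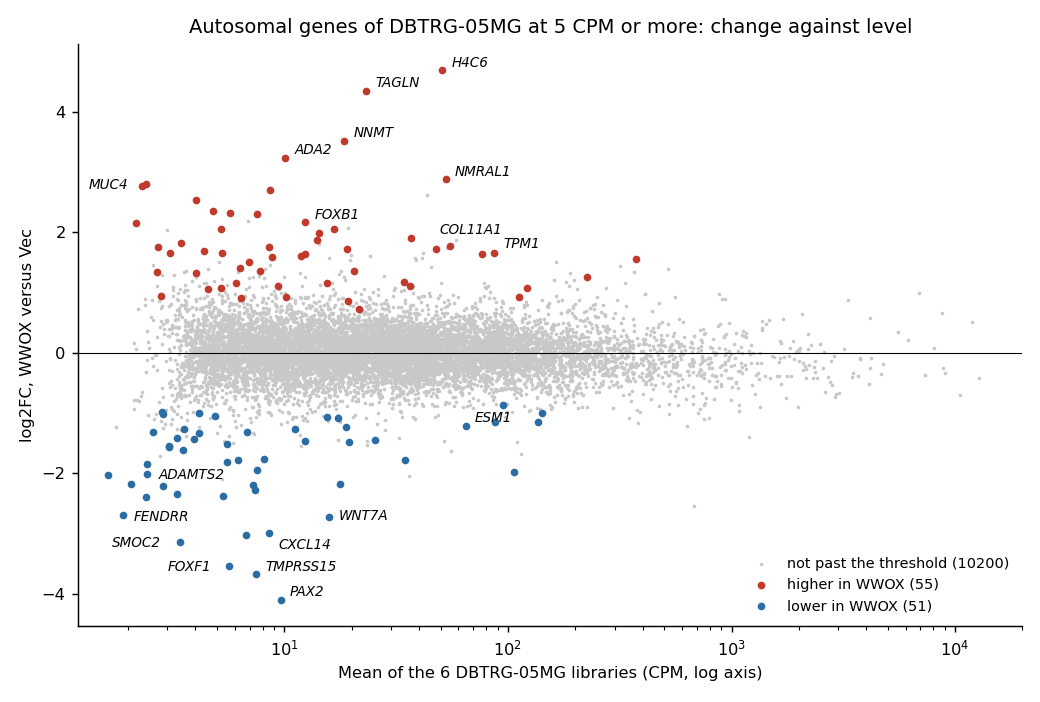
Each point is 1 of the 10306 autosomal genes of DBTRG-05MG, with the mean CPM of its 6 libraries on a log axis (x) and the log2FC of “WWOX” versus “Vec” (y). Red points are the 55 genes higher and blue points the 51 genes lower in “WWOX” (adjusted p under 0.05 from limma), from H4C6 at 4.69 down to PAX2 at −4.10.

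A GC trend ran through the comparison. Genes at or below the lower quartile of GC content (41.5%) had a median log2FC of 0.15, and genes at or above the upper quartile (56.01%) had a median of −0.16. Values corrected for GC content and transcript length, a correction added after the data had been seen, stand beside some of the gene lists. For the other lists corrected values are not given here, and the trend may bear on them as well. The strand setting of the counting is not given in the sources used here, and 60.1% of the 10306 genes overlap a gene on the other strand in GENCODE, so tags of such partners cannot be told apart.

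Developmental regulators are transcription factors that set the identity of embryonic tissues, and glioblastoma cells are known to use several of those of neural stem cells. Among 373 such genes listed, 137 were measured here, and 3 were higher and 3 lower (4.38%, against 1.03% of all genes). The lists were chosen with earlier results of these data known, so this and later shares of lists are descriptions only. The median log2FC of the 137 was −0.07, against 0.01 for all genes, and it was −0.02 with the GC correction. PAX2, FOXF1, and NKX2-2 fell, and SOX11, FOXB1, and SIX3 rose. All but FOXB1 reached 5 CPM in a single variant only, so a level under 5 CPM in the other was given by the rule. The calls of PAX2 and FOXF1 were kept in every alternative that tested them and with each library left out.

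PAX2 had the largest fall of all. It is a paired-box factor that patterns the midbrain and hindbrain boundary, the optic stalk, and the kidney. It measured 16.96, 8.56, and 30.8 CPM in “Vec” and 0.531, 0.648, and 0.274 CPM in “WWOX”. The log2FC was −4.10 (SE 0.367, adjusted p = 4.1e-07 from limma). The lowest “Vec” library was above 8 CPM and the highest “WWOX” library below 1 CPM. PAX3 and PAX6, the other measured PAX factors, had log2FC of 0.22 and 0.21 that did not pass the threshold.

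FOXF1, a forkhead factor of lung and gut mesenchyme, fell from 15.5, 11.6, and 5.86 CPM to 0.531, 0.324, and 0.343 CPM, a log2FC of −3.54 (SE 0.322, adjusted p = 4.56e-07 from limma). FENDRR, a long noncoding RNA transcribed away from FOXF1, measured 6.22, 2.77, and 2.24 CPM in “Vec” and 0, 0.0648, and 0.137 CPM in “WWOX”, where no library held more than 3 tags. The “Vec” mean of FENDRR was 19.5-fold above the level of 3 tags in “WWOX”. That value allows for counting error in “WWOX” but not for the spread in “Vec”. The fitted log2FC of FENDRR, −2.70, is no bound either (adjusted p = 6.48e-05 from limma). The 2 genes lie on opposite strands of chromosome 16, FENDRR from 86474529 to 86509099 and FOXF1 from 86510527 to 86515422, with 1428 bases between them. Both were low together in all “WWOX” libraries.

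The windows from 250 bases before to 50 bases after the RefSeq start (GRCh38.p14) are shown for the largest fall, for the noncoding partner of FOXF1, and for WNT7A and H4C6, the ligand and the histone gene described below. Capitals mark letters that match GGAATG (the TEAD motif) or CAGGTG (the E-box of SNAI and ZEB) on either strand.
PAX2 (chr10:100735146-100735445, plus strand): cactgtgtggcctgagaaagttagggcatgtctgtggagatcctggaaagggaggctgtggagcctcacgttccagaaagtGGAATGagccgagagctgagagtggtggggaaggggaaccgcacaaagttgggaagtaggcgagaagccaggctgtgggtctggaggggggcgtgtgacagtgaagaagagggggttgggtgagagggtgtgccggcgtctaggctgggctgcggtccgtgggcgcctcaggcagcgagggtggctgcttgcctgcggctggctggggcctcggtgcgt
FENDRR (chr16:86508811-86509110, minus strand): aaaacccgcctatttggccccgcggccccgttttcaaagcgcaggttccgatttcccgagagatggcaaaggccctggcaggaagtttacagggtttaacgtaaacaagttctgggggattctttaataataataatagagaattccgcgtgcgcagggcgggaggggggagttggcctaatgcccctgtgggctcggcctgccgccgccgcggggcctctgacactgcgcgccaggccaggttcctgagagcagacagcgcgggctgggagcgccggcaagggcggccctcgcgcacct
WNT7A (chr3:13880022-13880321, minus strand): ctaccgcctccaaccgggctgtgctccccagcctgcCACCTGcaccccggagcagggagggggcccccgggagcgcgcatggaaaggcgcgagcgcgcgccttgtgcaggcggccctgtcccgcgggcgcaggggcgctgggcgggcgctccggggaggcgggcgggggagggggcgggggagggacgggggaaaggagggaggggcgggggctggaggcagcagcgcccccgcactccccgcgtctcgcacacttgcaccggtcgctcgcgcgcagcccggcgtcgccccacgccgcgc
H4C6 (chr6:26240143-26240442, plus strand): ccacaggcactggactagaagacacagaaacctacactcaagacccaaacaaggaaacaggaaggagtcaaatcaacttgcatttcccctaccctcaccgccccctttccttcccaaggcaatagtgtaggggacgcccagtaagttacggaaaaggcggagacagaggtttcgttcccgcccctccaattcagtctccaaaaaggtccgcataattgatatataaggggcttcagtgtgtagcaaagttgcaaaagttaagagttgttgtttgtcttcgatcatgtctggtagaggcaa
The first base of the TEAD match lay 169 bases before the PAX2 start, and that of the E-box match 214 bases before the WNT7A start. FENDRR and H4C6 held no match to these or to the other motifs searched, which were the CArG box of SRF, TGANTCA of AP-1, and the TATA box (TATAAA). Only the exact letters TATAAA were searched, so related stretches such as tatataa in the H4C6 window were not counted. The AP-1 motif and the CArG box read alike on both strands, and none of the 5 motifs contains another. A promoter was listed for 74 of the 106 genes, 39 higher and 35 lower. Promoters were listed for 8338 of the 10306 genes measured. The TATA box was in 7 of the 39 and 4 of the 35 (17.9% and 11.4%), against 12% of all 27305 promoters listed and 5.5% of the 8338. The TEAD motif was in 10.3% and 20% (14% of all and 10.5% of the 8338), the AP-1 motif in 10.3% and 14.3% (7.76% and 4.38%), the E-box in 30.8% and 22.9% (20.6% and 17.3%), and the CArG box in 2.56% and 0% (1.29% and 1.1%). A ratio of observed to expected CpG under 0.6 was found in 43.6% of the promoters of genes that rose, in 42.9% of those that fell, in 51% of all 27305 promoters, and in 14% of the 8338. The promoters of TAGLN and FOXF1 were not looked at here.

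Of the regulators that rose, SOX11 and SIX3 reached 5 CPM in “WWOX” only and so had to be low in “Vec”. FOXB1 reached it in both variants. SOX11, an SRY-box factor of immature neurons, measured 1.37, 1.35, and 0.527 CPM in “Vec” and 13.2, 6.74, and 5.55 CPM in “WWOX”, a log2FC of 2.36 (SE 0.318, adjusted p = 0.000125 from limma). FOXB1, a forkhead factor of the hypothalamus and midbrain, rose from 4.19, 5.60, and 2.44 CPM to 15.2, 26.0, and 20.9 CPM, a log2FC of 2.17 (SE 0.332, adjusted p = 0.000627 from limma). No library of one variant lay within the range of the other for either gene, although FOXB1 was not called with edgeR (adjusted p = 0.227) or DESeq2 (0.0792). SIX3, a homeobox factor of the forebrain and eye, rose from 3.86, 2.06, and 3.36 CPM to 5.60, 7.52, and 8.91 CPM (log2FC 1.07, SE 0.217, adjusted p = 0.0103 from limma). The adjusted p of SIX3 from limma was 0.0736 without “Vec” replicate 2 and 0.106 without “WWOX” replicate 3, and over the alternatives it ran from 0.00315 to 0.593. Its list, which holds the EYA and DACH partners, had 5 measured genes, of which 4 had a positive log2FC, and the median was 0.93.

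NKX2-2, a homeobox factor of the ventral neural tube and of oligodendrocyte precursors, fell from 6.94, 6.70, and 6.52 CPM to 3.30, 3.24, and 2.74 CPM, a log2FC of −1.05 (SE 0.184, adjusted p = 0.00256 from limma). Its call was kept with each library left out, and its adjusted p ran from 2.48e-05 to 0.309 over the alternatives. SOX10, OLIG1, and OLIG2, further factors of that lineage, were at 4 tags or fewer in each library.

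HOX factors, which set position along the body axis and are active in many glioblastomas, moved mostly down without a call. Of 17 measured HOX genes, 11 had a negative log2FC, 0 passed the threshold with limma, and the median was −0.34 (−0.24 with the GC correction). Their summed scaled CPM was 1189, 1094, and 1217 in “Vec” and 813, 916, and 929 in “WWOX”. The 3 “Vec” sums were above the 3 “WWOX” sums. The same held for the sums of FOX, GATA, and RUNX and TFAP2 factors, and 20.5% of all single genes kept the variants apart. HOXA7 had the smallest p and the opposite sign, with 5.70, 5.60, and 7.71 CPM in “Vec” and 11.4, 16.7, and 13.2 CPM in “WWOX” (log2FC 1.00, adjusted p = 0.0935 from limma). Of 3 GATA factors, GATA4 measured 30.4, 37.2, and 26.3 CPM and then 21.8, 18.99, and 13.4 CPM (log2FC −0.85, adjusted p = 0.156 from limma).

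No call was made in the remaining regulator lists. Among the lists reported here, the smallest p was that of KLF11 among KLF and EGR factors (log2FC 1.11, adjusted p = 0.0644), LHX1 among LIM homeobox factors (0.88, 0.490), ZEB1 among EMT factors (0.43, 0.864), TCF4 among bHLH factors (0.38, 0.948), TBX2 among TBX factors (−0.63, 0.864), GLI3 among ZIC and GLI factors (−0.78, 0.653), TFAP2C among RUNX and TFAP2 factors (−0.58, 0.817), RXRA among nuclear receptors (−0.52, 0.411), and POU3F2 among POU factors (−0.21, 0.99), each as log2FC and adjusted p from limma.

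Signalling and pathway lists held 657 measured genes of 1087 listed, of which 11 were higher and 2 lower (1.98%, against 1.03% of all genes), with a median log2FC of −0.05. Single calls within these lists are to be read against that share of all genes. WNT7A, a Wnt ligand of brain vessel and synapse formation, measured 25.2, 29.0, and 29.6 CPM in “Vec” and 4.19, 3.76, and 3.84 CPM in “WWOX”, a log2FC of −2.72 (SE 0.239, adjusted p = 4.1e-07 from limma). It was the only one of 22 measured Wnt pathway genes that changed (4.55%), and their median log2FC was −0.05. BMP4, a ligand that drives glial and mesodermal differentiation, rose from 1.24, 1.29, and 1.12 CPM to 5.43, 3.82, and 3.29 CPM (log2FC 1.34, SE 0.231, adjusted p = 0.00234 from limma). It was the only call among 13 BMP and ID genes, whose median was 0.11. The call of BMP4 was lost with edgeR (adjusted p = 0.082) and in a limma model of DBTRG-05MG alone (adjusted p = 0.0507).

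The lists of axon guidance genes and of receptor kinases held 1 call each (3.03% and 3.33%, against 1.03% of all genes). SEMA3C, a secreted semaphorin that repels or attracts growing axons, rose from 9.82, 4.44, and 11.99 CPM to 35.3, 27.7, and 25.4 CPM, a log2FC of 1.72 (SE 0.334, adjusted p = 0.007 from limma, and 0.0651 without “Vec” replicate 2). It was the 1 call among 33 axon guidance genes. EPHB1, a receptor tyrosine kinase for ephrin-B ligands, rose from 0.393, 1.67, and 0.198 CPM to 12.7, 4.21, and 5.07 CPM (log2FC 2.53, SE 0.458, adjusted p = 0.00344 from limma). EPHB1 lost its call with edgeR (adjusted p = 0.0908), and it was the 1 call among 30 receptor tyrosine kinases and ligands.

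The list of MAPK feedback and FGF genes, many of them induced when MAPK signalling is active, lay lower in “WWOX”, with 14 of 20 negative and a median log2FC of −0.32 (−0.30 with the GC correction). Their summed scaled CPM was 2173, 2271, and 2047 in “Vec” and 1559, 1507, and 1494 in “WWOX”, with no overlap. Sums of other lists, such as cholesterol synthesis genes and S100 proteins and annexins, did not overlap either. None of the negative MAPK feedback and FGF genes passed the threshold with limma. The single call, FGF11, a member of the FGF family that stays in the cell, went the other way, from 3.99, 0.451, and 2.503 CPM to 3.19, 9.53, and 12.1 CPM. Its libraries overlapped, its log2FC was 1.65 (SE 0.405, adjusted p = 0.0488 from limma), and its call was kept in only 3 of 13 alternatives and with only 2 of the 24 libraries left out singly, at an adjusted p of 0.348 without “WWOX” replicate 3, 0.268 without “Vec” replicate 2, 0.254 without “WWOX” replicate 2, and 0.0978 without “Vec” replicate 3. Named after their values were seen, PHLDA1, ETV4, and EGR1, genes induced by growth factors, had log2FC of −1.22, −1.54, and −2.04 (adjusted p of 0.0896, 0.148, and 0.314 from limma), each with separate libraries. Separate libraries were found for 10 of the 20 genes of this list, against 20.5% of all genes.

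**Figure D2:**
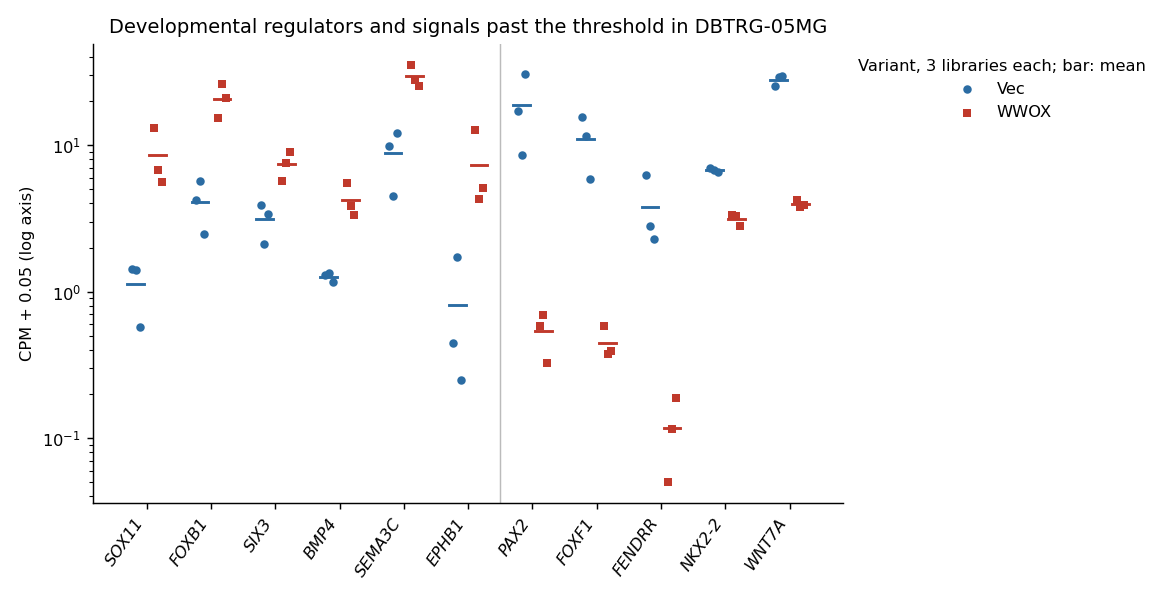
CPM plus 0.05 on a log axis (y) of the regulators and signals past the threshold (x), with blue circles for the 3 “Vec” libraries, red squares for the 3 “WWOX” libraries, and a bar for each mean. Left of the line the “WWOX” libraries are above those of “Vec”, and right of it they are below, most of all for PAX2 (18.8 against 0.484 CPM in the mean) and FOXF1 (10.97 against 0.399 CPM).

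Matrix genes encode the fibres, adhesive proteins, and enzymes of the space between cells, through which glioblastoma cells migrate. Of 367 listed, 174 were measured, and 1 was higher and 4 lower (2.87%, against 1.03% of all genes). The median log2FC was 0.14 (0.19 with the GC correction). The 4 lower genes include TMPRSS15, a protease that activates trypsinogens and not an enzyme of the matrix. SPON1, a secreted matrix protein, was in none of the lists. It reached 5 CPM in “Vec” only and fell with a log2FC of −2.03 (adjusted p = 0.00644 from limma). Its call was kept in 10 of 13 alternatives and with 22 of the 24 libraries left out singly. COL11A1, the collagen of cartilage fibrils that is also made by activated stroma, measured 23.4, 14.7, and 32.3 CPM in “Vec” and 49.4, 127, and 84.4 CPM in “WWOX”. All “WWOX” libraries were above all “Vec” libraries. The log2FC was 1.77 (SE 0.402, adjusted p = 0.0283 from limma), and the adjusted p was 0.0898 without “Vec” replicate 1, 0.147 without “Vec” replicate 2, 0.224 without “WWOX” replicate 2, and 0.148 without “WWOX” replicate 3. Of the 16 collagens measured, 10 had a positive log2FC with a median of 0.06, and COL1A1, COL1A2, and COL3A1, the fibrillar collagens of fibroblasts, were below 2 CPM in each library.

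The matrix genes that fell were secreted or membrane-bound regulators. SMOC2, a calcium-binding matricellular protein, fell from 9.89, 3.15, and 6.92 CPM to 0.0590, 0.389, and 0.206 CPM, a log2FC of −3.14 (SE 0.247, adjusted p = 7.15e-08 from limma). DESeq2 on the recovered tags did not call it (adjusted p = 0.924), while the other 12 alternatives that tested it did. ADAMTS2, the protease that removes the amino propeptide of procollagens, fell from 5.96, 3.22, and 3.56 CPM to 0.413, 0.907, and 0.617 CPM (log2FC −2.01, SE 0.25, adjusted p = 4.16e-05 from limma). ESM1, a secreted proteoglycan of activated endothelium and tumors, measured 80.3, 48.2, and 149 CPM in “Vec” and 41.6, 38.6, and 31.8 CPM in “WWOX”. Its log2FC was −1.21 (SE 0.296, adjusted p = 0.048 from limma), and the call was kept in only 4 of 14 alternatives and with only 4 of the 24 libraries left out singly, at an adjusted p of 0.362 without “Vec” replicate 3, 0.187 without “WWOX” replicate 3, 0.167 without “Vec” replicate 1, 0.15 without “WWOX” replicate 2, and 0.107 without “WWOX” replicate 1.

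The largest fall among proteases was that of TMPRSS15, on chromosome 21 from 18269116 to 18485879. It encodes enteropeptidase, the membrane protease that activates trypsinogens. It measured 13.4, 17.4, and 12.4 CPM in “Vec” and 0.354, 0.907, and 0.685 CPM in “WWOX”, a log2FC of −3.68 (SE 0.235, adjusted p = 3.54e-09 from limma). PRSS3, a trypsinogen, was outside the list and fell as well, from 10.9, 14.04, and 12.8 CPM to 2.54, 2.72, and 1.58 CPM (log2FC −2.29, SE 0.244, adjusted p = 4.25e-06 from limma). Both calls were kept in every alternative and with each library left out. Both genes reached 5 CPM in “Vec” only, so a level under 5 CPM in “WWOX” was given by the rule.

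Genes for collagen processing held no call in limma, with 16 of 21 positive and a median log2FC of 0.36 (0.43 with the GC correction). Their summed scaled CPM overlapped, at 6955, 10378, and 4912 in “Vec” and 9086, 7738, and 9501 in “WWOX”. P4HA1, a prolyl hydroxylase, had the smallest p (log2FC 0.75, adjusted p = 0.657 from limma). Laminins and nidogens (median 0.11, LAMA2 at 0.92 with an adjusted p of 0.433), integrins (median 0.09, ITGB1 at 0.90 with 0.739), and protease inhibitors (median 0.11, TIMP3 at 1.10 with 0.359) held no call in limma. TIMP3, an inhibitor bound to the matrix, had separate libraries, at 138, 95.9, and 115 CPM and then 250.7, 259.5, and 267 CPM. Separate libraries were found for 5 of the 16 protease inhibitors and for 20.5% of all genes.

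Contractile actin genes, many of them targets of SRF, held 2 large rises. TAGLN, an actin-binding protein of smooth muscle on chromosome 11 from 117199370 to 117207464, measured 1.64, 1.03, and 1.32 CPM in “Vec” and 19.996, 38.3, and 77.3 CPM in “WWOX”, a log2FC of 4.35 (SE 0.434, adjusted p = 1.71e-06 from limma). TPM1, a tropomyosin that lies along actin filaments, rose from 37.3, 34.1, and 49.2 CPM to 122, 119, and 159 CPM (log2FC 1.66, SE 0.295, adjusted p = 0.00297 from limma). Each “WWOX” value was above each “Vec” value for both, and both calls were kept throughout. TAGLN reached 5 CPM in “WWOX” only, so a level under 5 CPM in “Vec” was given by the rule. No other gene of the list passed the threshold, and the median log2FC over its 22 measured genes was 0.10 (0.16 with the GC correction). YAP and TEAD targets held no call among 20 (median 0.12), with NT5E at the smallest p (log2FC −0.93, adjusted p = 0.327 from limma).

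**Figure D3:**
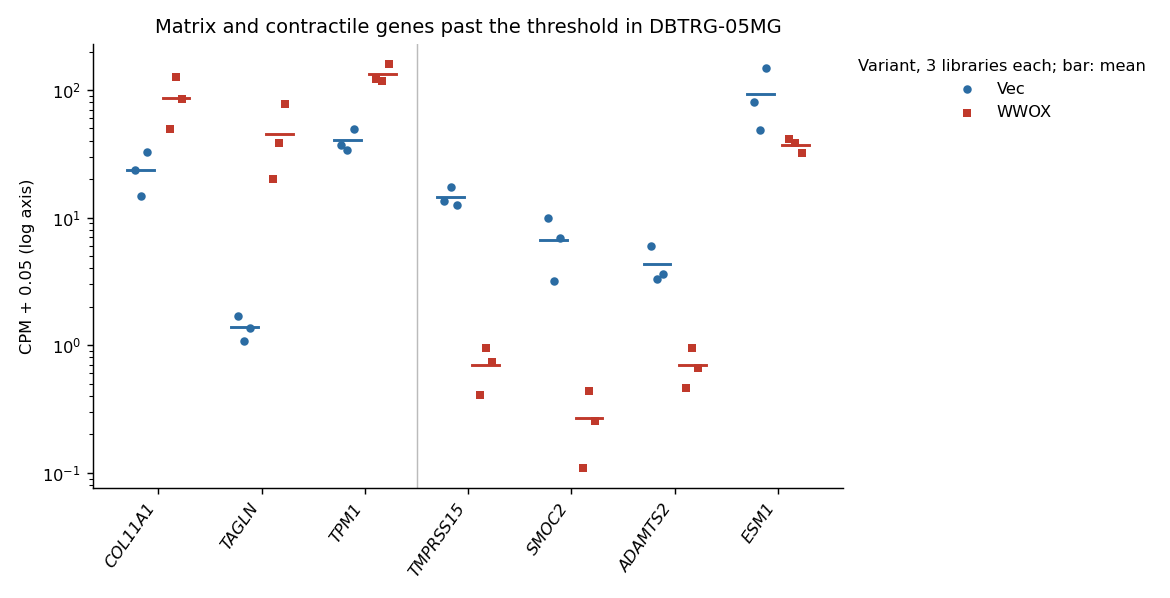
CPM plus 0.05 on a log axis (y) of the listed matrix and contractile genes past the threshold (x). The 3 “Vec” libraries are blue circles, the 3 “WWOX” libraries are red squares, and a bar marks each mean. COL11A1, TAGLN, and TPM1 are higher in “WWOX” and the 4 genes right of the line are lower, from TMPRSS15 (14.4 against 0.649 CPM in the mean) to ESM1 (92.3 against 37.3 CPM).

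Replication-dependent histones, which are made in S phase to package new DNA, lay lower in “WWOX” with 1 exception. Of 48 measured, 47 had a negative log2FC, and the median was −0.68 (−0.56 with the GC correction). Their summed scaled CPM was 29668, 23162, and 35031 in “Vec” and 13351, 19471, and 21874 in “WWOX”, with no overlap. Sums of several other lists, such as FOX and GATA factors, did not overlap either. None of the 47 passed the threshold with limma. The exception, H4C6, which encodes histone H4, had the largest rise of all the 10306 genes. It measured 3.34, 2.25, and 3.95 CPM in “Vec” and 85.6, 96.9, and 113 CPM in “WWOX”, a log2FC of 4.69 (SE 0.46, adjusted p = 1.61e-06 from limma). The other 9 measured H4 genes had log2FC from −1.10 for H4C4 to −0.01 for H4C16. The H4 genes encode the same protein with closely similar sequences, and 2 genes overlap H4C6 on its strand, so its value is uncertain to that extent.

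Of the DNA replication genes, 36 of 38 had a negative log2FC, with no call in limma, and a median log2FC of −0.45 (−0.44 with the GC correction). POLE, the catalytic subunit of DNA polymerase epsilon, had the smallest p, with 28.2, 16.998, and 33.7 CPM in “Vec” and 10.8, 19.1, and 16.1 CPM in “WWOX” (log2FC −0.80, adjusted p = 0.645 from limma). The summed scaled CPM of the list overlapped, at 1358, 946, and 1607 in “Vec” and 805, 909, and 1111 in “WWOX”. G2/M and mitosis genes were negative for 37 of 47, with a median of −0.20 (−0.27 with the GC correction) and CDC25B at the smallest p (log2FC −0.62, adjusted p = 0.692 from limma), and their sums overlapped as well. None of these genes passed the threshold with limma, and at an unadjusted p under 0.05 there was POLE alone among the replication genes.

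Genes of the unfolded protein response, the chaperones and sensors of the endoplasmic reticulum, had a positive log2FC for 21 of 22, with a median log2FC of 0.57 (0.51 with the GC correction) and no call in limma. ATF6, a sensor of that response, measured 29.0, 45.1, and 39.3 CPM in “Vec” and 88.9, 68.0, and 49.1 CPM in “WWOX” (log2FC 0.77, adjusted p = 0.605 from limma). The summed scaled CPM overlapped widely, at 22842, 44520, and 15540 in “Vec” and 50792, 32720, and 31502 in “WWOX”, so the spread between libraries of one variant was as large as the difference. The integrated stress response was positive for 22 of 28 (median 0.33), also with overlapping sums, and with VEGFA, an angiogenic factor, at the smallest p (log2FC 0.97, adjusted p = 0.513 from limma). VEGFA was also first among the 31 hypoxia and glycolysis genes, whose median was 0.13.

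Cholesterol synthesis genes were negative for 14 of 19 (median −0.37, and −0.23 with the GC correction). The summed scaled CPM of the list was 782, 915, and 747 in “Vec” and 585, 709, and 690 in “WWOX”. S100 proteins and annexins summed to 20758, 22705, and 19624 in “Vec” and to 11699, 17252, and 16791 in “WWOX” (median log2FC −0.28), with S100A13 at the smallest p (−1.48, adjusted p = 0.119 from limma). AP-1 factors were negative for 9 of 11 (median −0.45), with overlapping sums of 1268, 1050, and 1162 in “Vec” and 694, 897, and 1056 in “WWOX”, while FOSL2 had the smallest p (log2FC 0.75, adjusted p = 0.554 from limma). In none of these 3 lists did a gene pass the threshold.

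Among 29 NF-kB and chemokine genes, 1 was higher and 1 lower (6.9%, against 1.03% of all genes), and the median log2FC was 0.01. CXCL14, a chemokine of epithelia, fell from 24.0, 9.01, and 13.6 CPM to 0.590, 1.23, and 2.88 CPM, a log2FC of −2.996 (SE 0.562, adjusted p = 0.00518 from limma). Its adjusted p was 0.0564 without “Vec” replicate 1 and 0.0502 without “WWOX” replicate 1. CXCL6, which draws neutrophils, rose from 8.12, 2.58, and 6.65 CPM to 17.1, 15.8, and 21.2 CPM (log2FC 1.61, SE 0.26, adjusted p = 0.00117 from limma), and was lost with edgeR (adjusted p = 0.382) and DESeq2 (0.174). HLA-DPB1, a chain of an MHC class II molecule and the 1 call among 16 antigen presentation genes, rose from 2.36, 0.837, and 2.17 CPM to 5.37, 7.19, and 8.43 CPM (log2FC 1.69, SE 0.316, adjusted p = 0.00496 from limma), and kept its call in 8 of 14 alternatives, and not for example with edgeR (0.0957) and in DBTRG-05MG alone (0.119). Interferon-stimulated genes held no call among 35, with a median of 0.04 and IFIT5 at the smallest p (log2FC 0.59, adjusted p = 0.673 from limma).

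Among genes of redox, metal, and retinoid handling, NNMT, which methylates nicotinamide, rose from 1.18, 4.12, and 1.45 CPM to 62.9, 16.1, and 25.7 CPM, a log2FC of 3.52 (SE 0.534, adjusted p = 0.000553 from limma). The lowest “WWOX” library was still above the highest “Vec” library. NNMT reached 5 CPM in “WWOX” only, so a level under 5 CPM in “Vec” was given by the rule. It was the 1 call among 34 NRF2 targets. SLC39A11, a zinc transporter, rose from 12.2, 15.3, and 12.1 CPM to 29.1, 22.5, and 24.4 CPM (log2FC 0.85, SE 0.197, adjusted p = 0.0323 from limma), but its adjusted p was 0.166 without “Vec” replicate 1, 0.209 without “Vec” replicate 3, 0.156 without “WWOX” replicate 1, and 0.158 without “WWOX” replicate 3. RARRES2, the adipokine chemerin and a retinoid-responsive gene, measured 1747, 819.9, and 857.7 CPM in “Vec” and 87, 223.8, and 356.3 CPM in “WWOX”. Its libraries did not overlap, as for 20.5% of all genes. The SE of RARRES2 was 0.813, and its log2FC of −2.55 did not pass the threshold (adjusted p = 0.234 from limma).

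The remaining lists held no call in limma. The p53 targets had a median log2FC of 0.02 over 26 genes (CCNG1 at −0.71, adjusted p = 0.666), the TGF-beta pathway −0.03 over 22 (FST at −1.12, 0.457), the Notch pathway −0.02 over 15 (MAML3 at 0.76, 0.733), the Hedgehog pathway −0.27 over 5, cadherins 0.32 over 18 (DSG2 at 1.03, 0.381), and clustered protocadherins 0.17 over 8 (PCDHGB2 at −0.40, 0.922). PCDHGB2 overlaps 25 genes on its own strand, and its value is uncertain. Over all lists, 24 of 952 genes changed (2.52%), against 82 of the 9354 genes in no list (0.877%). Because the lists were chosen with earlier results of these data known, no conclusion is drawn from these shares.

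**Figure D4:**
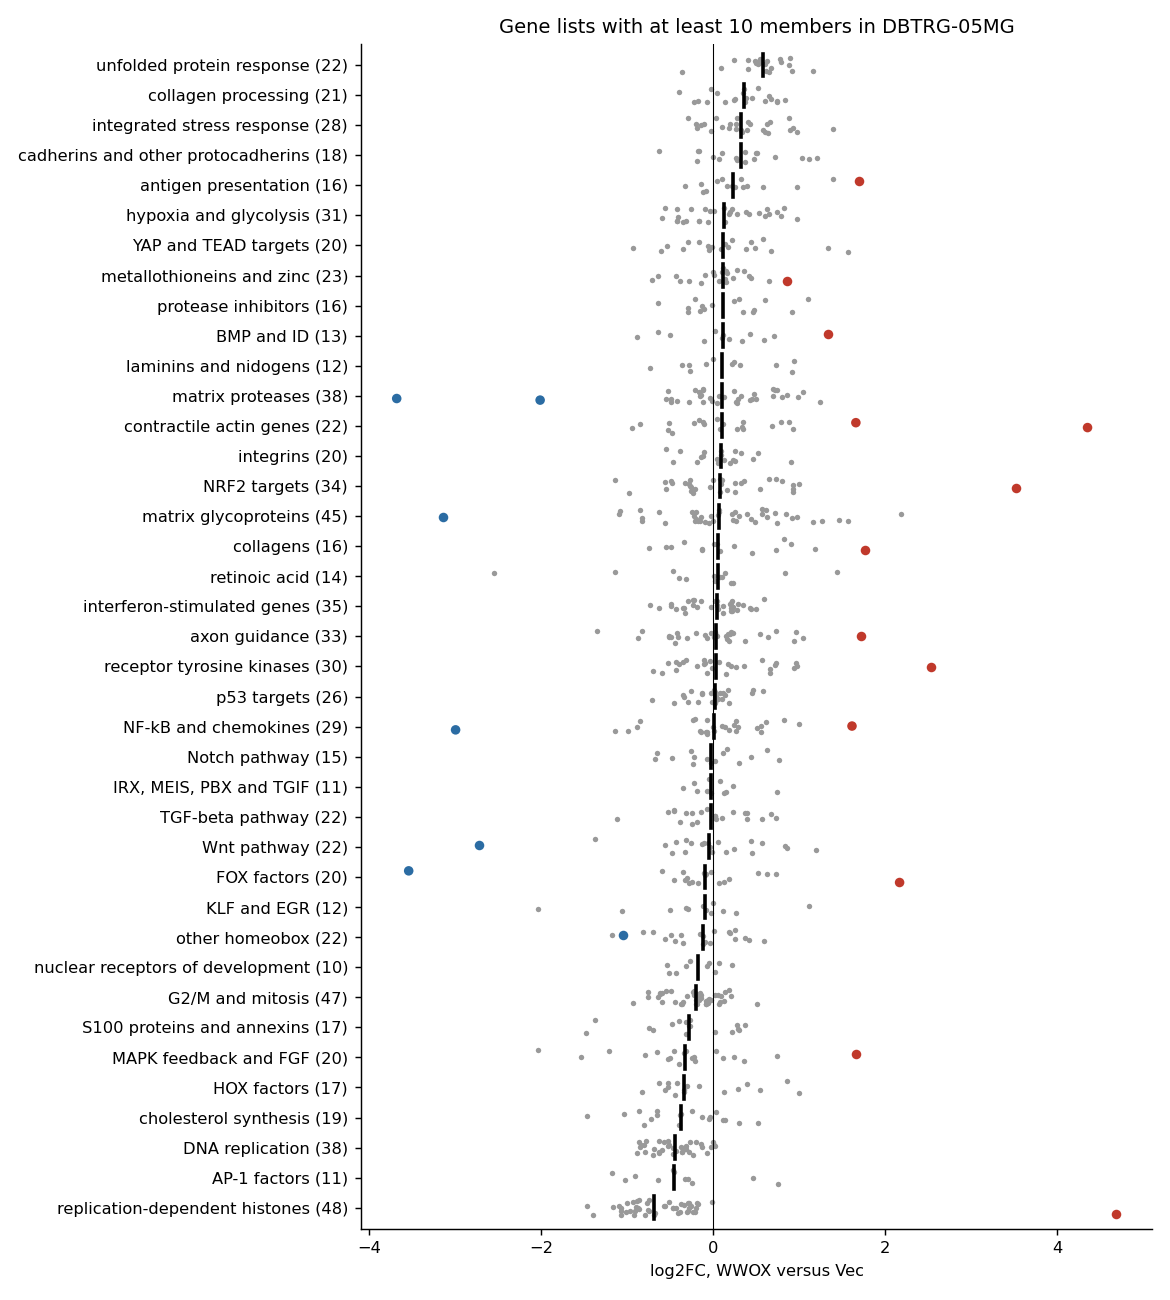
Log2FC of “WWOX” versus “Vec” (x) for the members of each gene list with at least 10 measured genes (y, with their number), where grey points are genes not past the threshold, red and blue points are genes higher and lower past it, and black bars are medians. The medians run from −0.68 for replication-dependent histones to 0.57 for the unfolded protein response, and the coloured points lie far from the medians of their lists.

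The largest changes outside the lists were in genes of several kinds. ADA2, a secreted adenosine deaminase, rose from 1.83, 0.644, and 1.98 CPM to 14.5, 23.7, and 18.03 CPM, a log2FC of 3.24 (SE 0.288, adjusted p = 4.1e-07 from limma). NMRAL1, a sensor of NADPH, rose from 14.1, 9.27, and 12.1 CPM to 85.8, 84.0, and 111 CPM (log2FC 2.88, SE 0.284, adjusted p = 1.61e-06 from limma). Of the rises at 5 CPM or more in both variants, that of NMRAL1 was the largest. SERPINA5, the protein C inhibitor, was at 3 tags or fewer in each “Vec” library and at 2.54, 5.12, and 5.76 CPM in “WWOX”. Its “WWOX” mean was 22.8-fold above the level of 3 tags in “Vec”, with no allowance for the spread in “WWOX”. MUC4, a membrane mucin, rose from 0.0655, 0, and 0.395 CPM to 4.31, 6.998, and 2.67 CPM (log2FC 2.80, adjusted p = 2.47e-06 from limma), without a call in DESeq2 (adjusted p = 0.38). The other rises among the 12 largest were the noncoding SFTA1P (2.70), the small heat shock protein gene HSPB6 (2.33), and the glucose transporter gene SLC2A10 (2.30), each given as log2FC and each with separate libraries.

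Among the falls, UBBP4, a ubiquitin pseudogene, fell from 11.1, 17.4, and 8.89 CPM to 1.18, 0.842, and 1.10 CPM (log2FC −3.03, SE 0.318, adjusted p = 3.47e-06 from limma). It resembles the ubiquitin genes closely, so its tags are uncertain. CADPS, which primes secretory vesicles, fell from 12.6, 4.57, and 10.9 CPM to 0.885, 1.68, and 1.30 CPM (log2FC −2.38, SE 0.267, adjusted p = 9.33e-06 from limma). RTN1, a reticulon of neuroendocrine cells, fell from 5.499, 2.38, and 10.1 CPM to 1.00, 0.583, and 0.343 CPM (log2FC −2.34, SE 0.379, adjusted p = 0.00117 from limma). RNASE1, a secreted ribonuclease, had a log2FC of −2.21 (SE 0.477, adjusted p = 0.0188 from limma), and the adjusted p was 0.177 without “Vec” replicate 1, 0.157 without “Vec” replicate 3, and 0.14 without “WWOX” replicate 1.

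Several changed genes were neighbours, and these were named after their values were seen. In 7 pairs, changed genes lay within 500000 bases of each other, and each pair moved in the same direction. Measured genes without a call lay in the spans of CAMK1G and G0S2, SCN4B and MPZL2, and MUC4 and TFRC. How many such pairs other sets of genes would hold was not tested. FENDRR and FOXF1 on chromosome 16 were the closest. TFF3 and TFF2, trefoil peptides of mucosae on chromosome 21, lie 30948 bases apart and had log2FC of −1.84 and −1.99, and TFF2 fell from 193.7, 185.6, and 130.5 CPM to 49.7, 35.7, and 46.8 CPM. FUCA2 and PHACTR2 on chromosome 6 rose (1.08 and 1.72), as did MUC4 and TFRC, the transferrin receptor, on chromosome 3 (2.80 and 1.64). CAMK1G and G0S2 on chromosome 1 fell (−1.42 and −1.94), as did KIF19 and GPRC5C on chromosome 17 (−1.54 and −1.52) and SCN4B and MPZL2 on chromosome 11 (−1.78 and −1.61). By chromosome, the median log2FC relative to all 10306 genes ran from −0.23 for chromosomes 9 and 12 to 0.22 for chromosomes 10 and 18. PAX2 lies on chromosome 10 and fell against that median. The share of genes changed was highest on chromosome 21, at 4.5% of 111 genes.

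DBTRG-05MG was then compared with the other lines by the difference of its log2FC from the mean of U87MG, T98G, and U251MG. This difference passed the threshold for 86 of the 10306 genes (0.834%), with 663 at an unadjusted p under 0.05, and 68 of the 106 changed genes were among them. Its median standard error was 0.366. Of the 37 named genes that changed in DBTRG-05MG, 30 differed. Many of these were near the limit of detection elsewhere, where a change was not detectable at this depth. SMOC2 was listed at 0 in all libraries of the other lines, FOXB1, MUC4, and WNT7A were below 0.5 CPM in each mean, and PAX2 reached at most 3.49 CPM, in T98G “WWOX”.

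Other genes were well transcribed in another line and moved there differently. FOXF1 was high in T98G, at a mean of 193 CPM in “Vec” and 140 CPM in “WWOX”, where its log2FC was −0.45 (adjusted p = 0.642 from limma) and that of FENDRR −0.70 (0.451). TMPRSS15 measured 15.3 and 24.2 CPM in U87MG (log2FC 0.60, adjusted p = 0.245 from limma). The changes of NMRAL1, HSPB6, and TPM1 in U87MG passed the threshold downwards (−2.31, −2.56, and −1.77), as did those of SOX11 in U251MG (−4.63) and HLA-DPB1 in T98G (−3.52). For these 5 genes the sign was thus opposite to that in DBTRG-05MG.

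A few genes moved alike elsewhere. TAGLN rose in U87MG as well, from a mean of 0.528 to 47.1 CPM (log2FC 5.39), and still differed from the mean of the other lines by 2.87 (adjusted p = 0.0028 from limma), with T98G and U251MG at −1.04 and 0.11. PRSS3 fell in U87MG (−2.21), RNASE1 in U87MG and U251MG (−4.07 and −3.92), CXCL14 in U251MG (−3.29), and ADAMTS2 in T98G (−1.26). For RNASE1 and CXCL14 that contrast between lines had an adjusted p of 0.999 and 0.937 from limma, and it also missed the threshold for COL11A1, EPHB1, FGF11, SLC39A11, and ESM1.

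**Figure D5:**
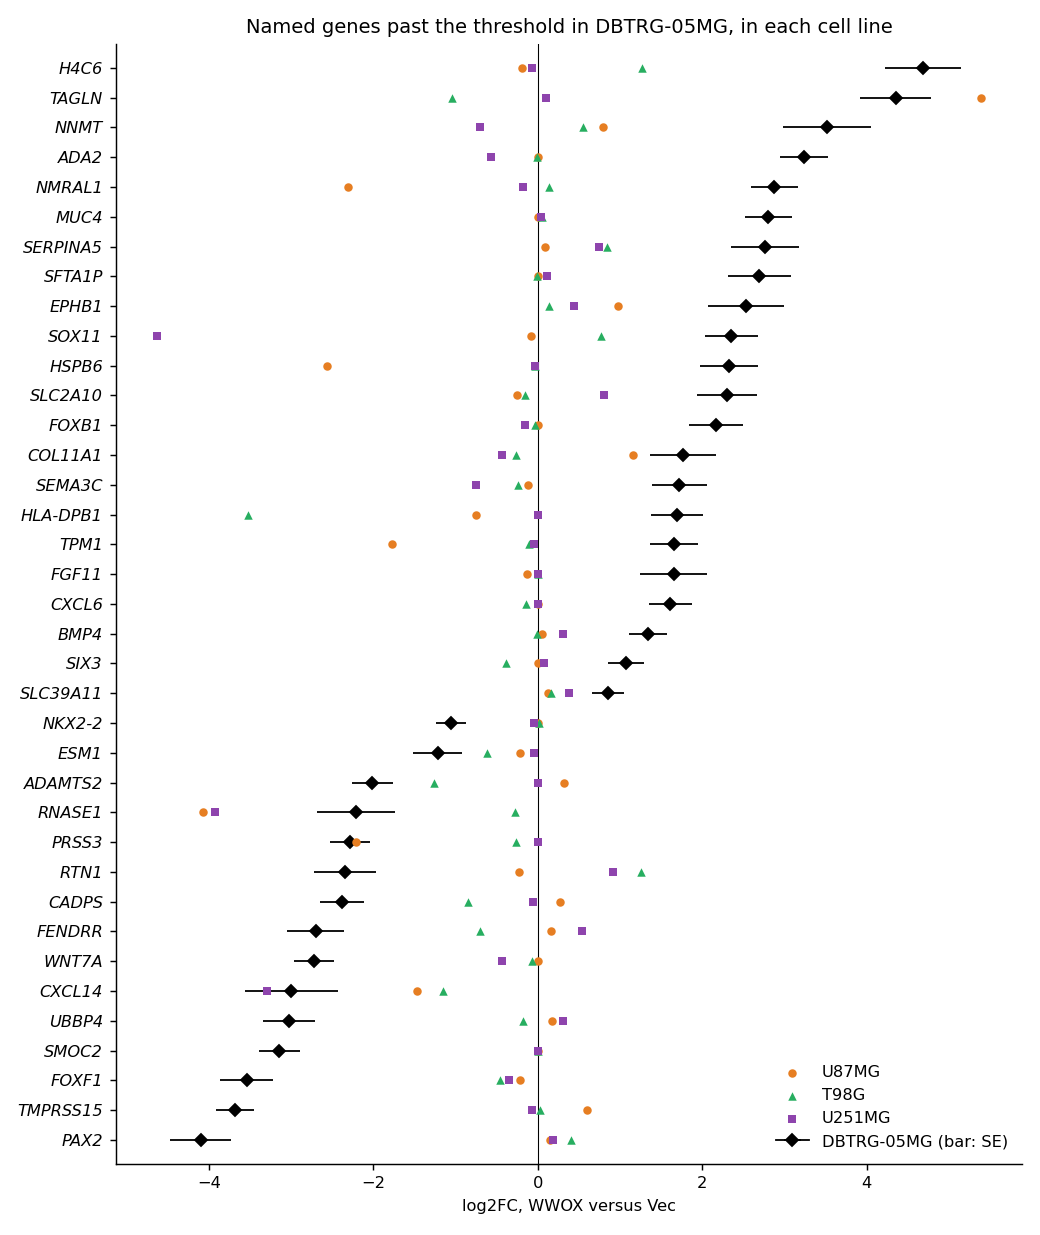
Log2FC of “WWOX” versus “Vec” (x) of the 37 named genes past the threshold in DBTRG-05MG (y), with black diamonds and SE bars for DBTRG-05MG, orange circles for U87MG, green triangles for T98G, and purple squares for U251MG. Most of the other values lie near 0, while TAGLN, PRSS3, RNASE1, and CXCL14 have another line on the same side, and NMRAL1, SOX11, HSPB6, HLA-DPB1, and TPM1 have one on the opposite side.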

How the data were processed

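Capped RNA of the 24 libraries was sequenced from its 5′ ends, and the authors aligned the reads with STAR to hg38 and counted tags per gene with SAMtools. The deposited values were CPM per gene, and the counting annotation and strand setting are not given in the sources used here. All CPM values came out as whole tags (100.0%, within 0.001 of a tag), and 4 of the 43037 listed genes carried no symbol. Here, CPM were scaled by TMM (edgeR 4.0.16), and log2(scaled CPM + 0.5) was fitted with limma 3.58.1 (trend, 8 groups, 16 residual degrees of freedom, R 4.3.3). The test was two-sided with Benjamini-Hochberg adjustment over the 12327 genes with at least 5 CPM in 1 library of any line, of which 127 changed in DBTRG-05MG. The threshold was 0.05. Positions are from GENCODE on hg38 and promoters from RefSeq (GRCh38.p14).

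Alternatives were pseudocounts 0.1 and 1, other filters and scalings, DBTRG-05MG alone, a replicate block, edgeR, limma-voom, and DESeq2 1.42.0 on the recovered tags, and each of the 24 libraries left out. The 2 corrections for GC content and transcript length were added after the data had been seen. The members and the 53 gene lists were chosen with earlier results of these data known. The named genes were WWOX, the 12 largest rises and the 12 largest falls with non-overlapping libraries, and in each list the genes past the threshold (up to 5) or otherwise that with the smallest p. Some genes that this rule names are not reported here. The steps were tested on simulated data.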

Additional observations from a re-analysis of the deposited data

Results flagged for a closer look

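For 30 named genes the change with WWOX in DBTRG-05MG differed from the mean change of the other 3 lines by the test of that difference (adjusted p under 0.05 from limma), and the values here are differences of log2FC. Many of these genes were named for a large change in DBTRG-05MG. For a gene near 0 CPM elsewhere, the difference repeats its log2FC in DBTRG-05MG, as for SMOC2 (−3.14 in both). Among regulators and signals, they were SOX11 (3.67), FOXB1 (2.23), BMP4 (1.22), SIX3 (1.18), NKX2-2 (−1.04), WNT7A (−2.55), FENDRR (−2.70), FOXF1 (−3.20), and PAX2 (−4.35).

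Guidance, matrix, and contractile genes with a difference were TAGLN (2.87), TPM1 (2.30), SEMA3C (2.09), ADAMTS2 (−1.70), SMOC2 (−3.14), and TMPRSS15 (−3.87). The genes of immunity, metabolism, and stress were NMRAL1 (3.66), ADA2 (3.43), NNMT (3.31), HSPB6 (3.20), HLA-DPB1 (3.11), SLC2A10 (2.17), and CXCL6 (1.66).

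The other 8 were PRSS3 (−1.46), H4C6 (4.35), MUC4 (2.77), SFTA1P (2.66), SERPINA5 (2.21), CADPS (−2.17), RTN1 (−2.99), and UBBP4 (−3.13). The adjusted p of the difference from limma ran from 2.3e-08 for TMPRSS15 to 0.0212 for BMP4. PRSS3 fell in U87MG too, by a log2FC of −2.21, while it was near 0 CPM in T98G and U251MG. TAGLN rose more in U87MG (log2FC 5.39) than in DBTRG-05MG (4.35).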

How the results depend on the processing

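Of the 106 changed genes (55 higher, 51 lower), 58 (31 and 27) were called with a pseudocount of 0.1, 40 (23 and 17) among genes with a mean of at least 5 CPM, where only 52 of the 106 were tested, 30 (16 and 14) in DBTRG-05MG alone, with fewer libraries, and 39 (21 and 18) with edgeR. DESeq2 called 101, of which 72 were among the 106. The sign of the tested genes was kept in every alternative, and 18 of the 106 calls were kept in all of them. The 6 developmental regulators became 3, 2, 2, and 3 under the same 4 settings, the 5 matrix genes 3, 2, 2, and 3 (and 3 with no filter on low values), and the 13 pathway genes 8 with the mean filter, 4 alone, and 7 with edgeR. The 86 genes that differed from the other lines became 35 with the mean filter and 22 with edgeR. Beyond the fewer genes or libraries named, the cause of these changes was not tested.

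Same-numbered libraries of DBTRG-05MG did not deviate together (correlations of −0.560, −0.575, and −0.263). Deviations are taken from the mean of 3 libraries, so these correlations cannot show whether same-numbered libraries were handled together. Some libraries of unlike number deviated together. The correlations were 0.681 for “Vec” 1 with “WWOX” 3, 0.631 for “Vec” 2 with “WWOX” 1, and 0.667 for “Vec” 3 with “WWOX” 2. The main limma model takes no account of such links. The replicate block joins same-numbered libraries, and the source of these correlations was not tested. With the replicate block, 62 genes were called (36 higher, 26 lower), 3 matrix genes, and 46 that differed from the other lines. With the block and the GC correction together, 28 genes were lower, 3 matrix genes were called, and 54 differed.

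With 1 library left out, the count ran from 67 (without “Vec” replicate 1 of DBTRG-05MG) to 124, higher genes from 38 to 61, lower genes from 27 to 63, regulators from 5 to 7, matrix genes from 3 to 6, pathway genes from 11 to 17, and differing genes from 60 to 106. Without “WWOX” replicate 1 of DBTRG-05MG, 33 genes were lower. WWOX kept its direction and side of the threshold, at 0.29 to 0.45 over the alternatives and 0.33 to 0.46 with 1 library left out. POU3F2 (−0.21) changed sign without “Vec” replicate 1, “Vec” replicate 3 (0.12), or “WWOX” replicate 1 (0.02) of DBTRG-05MG, and ran from −0.74 to 0.12. Of 37 named calls, 13 were kept in every alternative and 29 with every library left out, while 22 were lost in DBTRG-05MG alone and 13 with edgeR.

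Depth limits genes near 0.2 CPM, 3 replicates limit the precision, and clone selection and the variant cannot be told apart.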
